A study of Mus musculus with 51 samples.

Results

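The nuclear genes of the mitochondrial oxidative phosphorylation complexes were followed in 51 arrays of mouse ventral prostate. The members were chosen by gene symbol alone: the numbered Nduf subunit names (Nduf followed by a, b, c, s or v) for complex I, with Ndufv3 left out, Uqcr and Cyc1 for complex III, Cox4 to Cox8 for complex IV and Atp5 for complex V, with Cycs, cytochrome c, apart. They came to 143 probe sets of 75 genes, out of 12393 genes that had a probe set with a single symbol. Complex I had 32 of these genes, complex III 9, complex IV 16 and complex V 17. The subunits encoded by mitochondrial DNA and the 4 genes of complex II were not among them.

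Oxidative phosphorylation takes place in the inner mitochondrial membrane. Complex I takes electrons from NADH and passes them through ubiquinone to complex III, which hands them to the small soluble protein cytochrome c, which carries them to complex IV, where oxygen is reduced. The protons pumped on the way drive complex V, the ATP synthase, through a ring of c subunits in the membrane. The prostate epithelium is known for secreting citrate that other tissues would burn in this pathway. AKT1 is a kinase of the growth factor pathway upstream of mTOR, and mTOR is the target of RAD001 (everolimus).

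Total RNA came from mice of the FVB strain, either wild type or carrying the transgene named FVB-AKT1 in the labels, all aged 8 to 10 weeks. Wild type mice had received placebo for 12 h (4 arrays), 48 h (4) or 15 d (3). Transgenic mice had received placebo for 12 h (4), 48 h (5), 6 d (1), 9 d (1) or 15 d (7), or RAD001 for 12 h (5), 48 h (4), 6 d (3), 9 d (4) or 15 d (6). No wild type mice received RAD001. The stated purpose was to tell markers of drug exposure from markers of response to RAD001. The RAD001 dose and the promoter that drives the transgene are not given in the sources used here. Arrays of one group were labelled as biological replicates. The 42 arrays of 12 h, 48 h and 15 d were deposited in one value table and the 9 of 6 d and 9 d in another, and each table was tested alone.

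Array medians lay between 91.59 and 109.3 in the large table. Between 38 and 1092 probe sets of an array in that table were listed at exactly 0, and 2 arrays had over 500 of them, transgenic placebo at 15 d replicates 8 and 9 with 835 and 1092. In the small table, RAD001 at 6 d replicate 1 (812) and at 9 d replicate 3 (561) had over 500. Zeros also stood in the members: the probe sets used for 10 genes were listed at 0 on 1 or 2 arrays, among them Cox5a on transgenic placebo at 15 d replicate 9, where every other array of the table read at least 1030. A value of 0 took the floor of 16 before log2. Counts, and the values of some of these genes whose call differs, are also given with zeros as missing, an alternative chosen after seeing the data. At 15 d the arrays fell into 2 sets along the first principal component, with 26.1% of the variance. One set held all 3 wild type arrays with placebo replicates 1 and 2 and RAD001 replicates 1 and 2, and the other held the remaining 5 placebo and 4 RAD001 arrays of transgenic mice. The labels give no reason for this split.

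Of the 75 genes, 71 had a probe set that passed the filter on low values. The 4 that did not were all of complex IV: Cox7a1 and Cox8b, isoforms of heart and skeletal muscle, Cox6b2, an isoform of testis, and Cox7c, whose probe sets had median intensities of 6.51 and 55.4. Cox7a1 had a median intensity of 34.6 and Cox8b one of 8.98. Cox6a2, the muscle partner of Cox6a1, did pass, with 575 to 883 in wild type at 12 h, and was not called in any comparison. Neither Cox4i1 nor its lung-type partner Cox4i2 was called in any comparison. Ndufa4 stayed with complex I by its symbol although the protein is now counted to complex IV. It was not called either, with averaged log2 changes of -0.01 ± 0.06 by genotype and 0.02 ± 0.06 with RAD001. Changes are given as log2 differences ± 1 standard error, and a gene is called where limma's moderated test, adjusted by Benjamini-Hochberg over all features of the table, gave an adjusted p under 0.05.

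Averaged over 12 h, 48 h and 15 d, transgenic placebo glands differed from wild type in 26 of the 71 measured subunits, 17 higher and 9 lower, where 33.5% of all 9627 features were called. The members' share is close to that background. Of all features 14.2% were higher and 19.2% lower. The median change of the members was 0.03, against -0.05 over all features. With RAD001, averaged over the same times, 18 of the 71 were called, 16 lower and 2 higher, where 10.4% of all features were called, 4.7% lower and 5.75% higher. The median change with RAD001 was -0.08 for the members and 0.02 over all features, and 49 of the 71 members were below 0. The genotype and RAD001 comparisons share the transgenic placebo arrays, so a high or low placebo value moves them in opposite directions, and their values are only set side by side. Without 15 d the RAD001 count was 8, all lower, and of the 18 calls only those of Cycs, Atp5g1, Atp5g3, Ndufb1 and Ndufs1 were kept. With zeros as missing it was 22 (2 higher, 20 lower), with Cox5a, Uqcrq, Ndufa3 and Ndufc2 added. The averaged genotype count was then 31 (21 higher, 10 lower), with Cox5a, Cox6a1, Uqcrq, Ndufa3 and Uqcr10 added. Over all features it rose too, from 3222 of 9627 to 3911 of 9617. In fits that left out 1 array each, 20 of the 26 genotype calls and 11 of the 18 RAD001 calls were kept in every fit. Over the other alternatives, some of them chosen after seeing the data, 9 of the 26 and 4 of the 18 were kept in all.

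**Figure D1:**
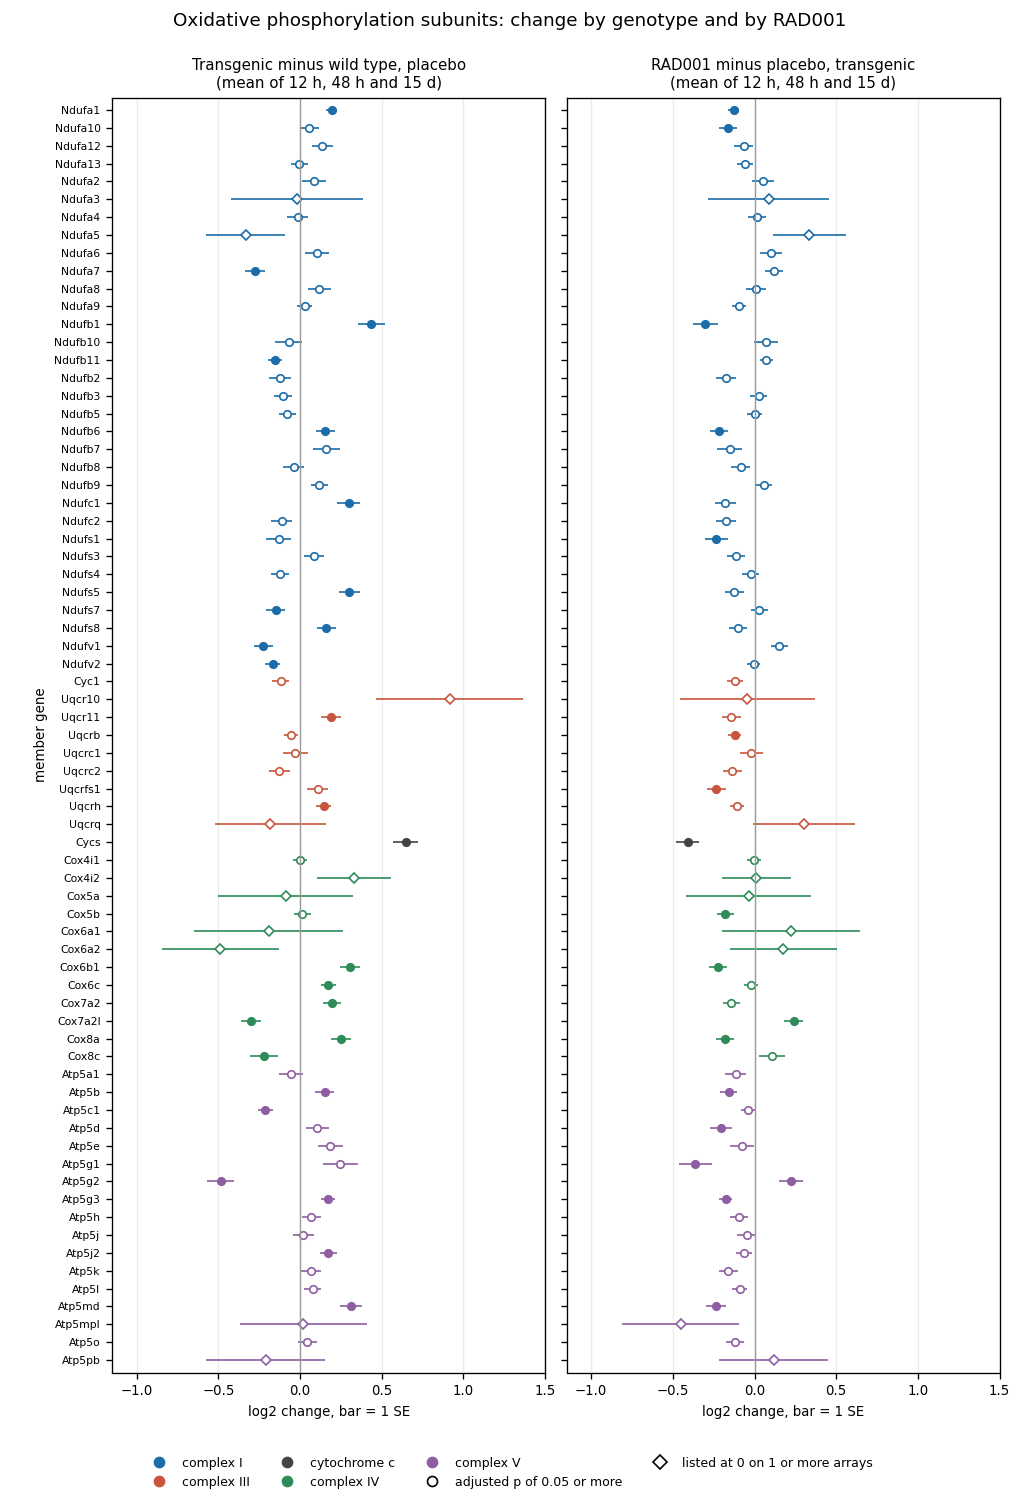
Log2 change of each measured subunit by genotype (left) and with RAD001 (right), averaged over 12 h, 48 h and 15 d; points are estimates, bars are 1 standard error, filled points are called and diamonds mark genes listed at 0 on an array. Cycs stands farthest to the right among the called genes of the left panel (0.65) and farthest to the left among those of the right panel (-0.41).

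Cycs was the called subunit with the largest change in both averaged comparisons. In complex V, Atp5g1, Atp5g2 and Atp5g3 encode the same mature c subunit behind different import sequences. With RAD001, in the average, Atp5g1 and Atp5g3 were called lower and Atp5g2 higher. To show the regions that Cycs and these genes are read from, the 250 bases before each start site are printed below from RefSeq (GRCm38.p6). Capitals mark the motifs found by search of both strands. In Cycs, at chr6:50566570-50566819 on the minus strand, they mark a cAMP response element, TGACGTCA, at position -169 from the start and an NRF1 core, GCATGCGC, at -60. In Atp5g1, at chr11:96075632-96075881 on the minus strand, they mark an E-box, CACGTG, at -44. In Atp5g2, at chr15:102671048-102671297 on the minus strand, they mark NRF1 cores on opposite strands that overlap, from -42 and from -40. In Atp5g3, at chr2:73911327-73911576 on the minus strand, they mark an E-box at -238 and, at -52, the estrogen-related receptor motif TCAAGGTCA on the opposite strand.

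Cycs: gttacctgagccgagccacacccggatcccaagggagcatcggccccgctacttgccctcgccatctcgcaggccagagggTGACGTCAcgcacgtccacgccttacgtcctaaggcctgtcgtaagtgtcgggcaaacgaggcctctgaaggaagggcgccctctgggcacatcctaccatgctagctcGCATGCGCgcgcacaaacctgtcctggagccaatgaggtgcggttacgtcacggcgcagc
Atp5g1: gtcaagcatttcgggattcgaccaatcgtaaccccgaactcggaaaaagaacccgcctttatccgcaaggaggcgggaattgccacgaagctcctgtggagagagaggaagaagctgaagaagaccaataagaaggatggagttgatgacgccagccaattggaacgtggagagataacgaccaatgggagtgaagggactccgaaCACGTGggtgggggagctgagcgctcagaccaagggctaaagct
Atp5g2: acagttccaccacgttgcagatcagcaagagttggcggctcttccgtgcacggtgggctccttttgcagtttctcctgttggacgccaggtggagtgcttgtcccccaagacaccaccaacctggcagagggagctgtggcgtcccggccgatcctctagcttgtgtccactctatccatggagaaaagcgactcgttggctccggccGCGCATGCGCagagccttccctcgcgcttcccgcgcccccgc
Atp5g3: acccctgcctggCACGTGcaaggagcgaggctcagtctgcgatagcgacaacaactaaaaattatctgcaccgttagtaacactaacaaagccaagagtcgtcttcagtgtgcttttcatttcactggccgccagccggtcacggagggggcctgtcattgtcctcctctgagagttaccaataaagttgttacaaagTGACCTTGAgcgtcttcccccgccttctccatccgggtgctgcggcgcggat

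Of the 75 members 61 had a promoter in the table, searched over 250 bases before to 50 after the start. The NRF1 core was found in 9 of the 61 (14.8%), against 2.8% of all 27025 promoters of that length. The cAMP response element was found in 4 (6.56%, against 1.88%): Cycs, Ndufa10, Ndufb2 and Uqcrfs1. The YY1 motif AAGATGGCG was found in 5 (8.2%, against 1.49%) and the GABP motif CCGGAAGT in 5 (8.2%, against 4%). The E-box was found in 6 (9.84%, against 7.24%) and the estrogen-related receptor motif in 1 (1.64%, against 0.407%). A match is only a description of these letters.

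Cycs was higher in transgenic placebo than in wild type glands at each time. At 12 h its intensities were 671, 617, 764 and 786 in wild type, 1080.2, 1168, 1103 and 1332 in transgenic placebo and 973, 828, 1006, 1009 and 704 with RAD001. At 48 h they were 808, 773, 888 and 1009.7 in wild type, 1166, 1245, 1284, 1125 and 1052 in transgenic placebo and 806, 1042, 782 and 866 with RAD001. At 15 d wild type read 709, 717 and 706, transgenic placebo ran from 888 through a median of 1257 to 1517, and RAD001 from 739.8 through 907 to 1114. Wild type and transgenic placebo did not overlap at any of these times, and RAD001 and placebo did not overlap at 12 h and 48 h but did at 15 d. The genotype change was 0.72 ± 0.14 at 12 h, 0.44 ± 0.13 at 48 h and 0.77 ± 0.13 at 15 d (adjusted p = 0.000185, 0.0111 and 0.000169). The RAD001 change was -0.38, -0.43 and -0.41 at these times, and it was called at 15 d (adjusted p = 0.0161) and in the average (-0.41 ± 0.07, adjusted p = 0.000128), not at 12 h (0.147) or 48 h (0.053). All 3 probe sets of Cycs had the same sign, from 0.58 to 0.80 by genotype and from -0.41 to -0.34 with RAD001.

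The 15 d values of Cycs were highest on transgenic placebo replicates 8 and 9, the arrays with the most zeros. Without both, the RAD001 change at 15 d was -0.29 ± 0.11 (adjusted p = 0.14) and the genotype change 0.66 ± 0.13 (adjusted p = 0.00117). With the set of 15 d arrays as a block, the genotype change at 15 d was 0.51 ± 0.13 (adjusted p = 0.0209) and the RAD001 change -0.39 ± 0.09 (adjusted p = 0.00526). The RAD001 call at 15 d was also lost without RAD001 replicate 2 (adjusted p = 0.0565), while the averaged call was kept in all 31 fits that left out 1 array. Against wild type, RAD001-treated transgenic glands were still higher in Cycs, by 0.24 ± 0.08 (adjusted p = 0.0239, and 0.0528 without RAD001 at 48 h replicate 2).

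**Figure D2:**
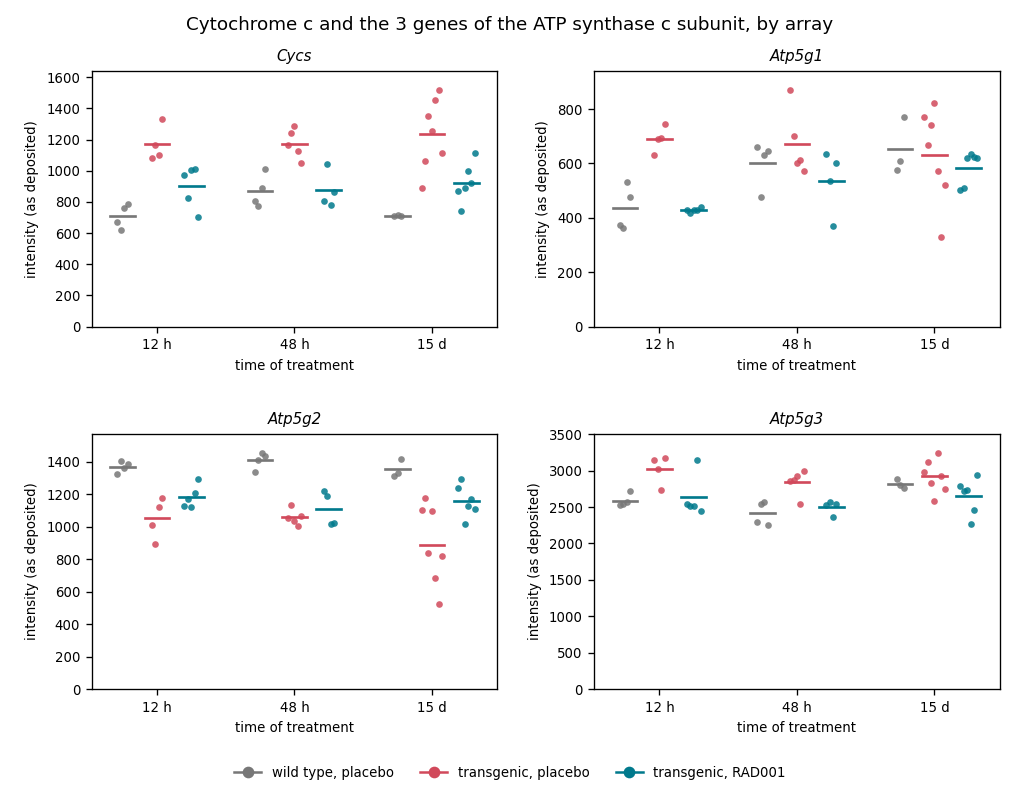
Deposited intensity (linear) of Cycs, Atp5g1, Atp5g2 and Atp5g3 on each array at 12 h, 48 h and 15 d, with group means as lines. Transgenic placebo lies above wild type at each time for Cycs and below it for Atp5g2, and the 5 Atp5g1 arrays of RAD001 at 12 h lie between 419 and 441.

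In complex V, the ATP synthase, 6 of 17 genes were called by genotype, 35.3%, close to the 33.5% of all features. Atp5b (the catalytic beta subunit), Atp5j2, Atp5md and Atp5g3 were higher, and Atp5g2 and Atp5c1 (the central stalk gamma subunit) lower. With RAD001, 5 of 17 were lower (Atp5g1, Atp5b, Atp5md, Atp5g3 and Atp5d, the delta subunit) and Atp5g2 higher. Together this is 35.3%, where 10.4% of all features were called, 4.7% lower and 5.75% higher. The complex median with RAD001 was -0.12, and 15 of its 17 genes were below 0. The c subunit genes did not move alike. Atp5g2 read 1327, 1405, 1361 and 1387 in wild type at 12 h and 1012, 891, 1123.5 and 1179 in transgenic placebo. At 48 h it read 1336.5, 1414, 1456 and 1434.5 in wild type and 1056, 1134, 1036, 1005.5 and 1064 in transgenic placebo. At 15 d it read 1309.5, 1333 and 1416 in wild type, and transgenic placebo ran from 522 through 836 to 1174. At each time every transgenic placebo array was below every wild type array. The averaged genotype change of Atp5g2 was -0.49 ± 0.08 (adjusted p = 1.23e-05), kept in all 27 fits that left out 1 array.

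With RAD001 at 15 d Atp5g2 ran from 1018 through 1148 to 1295, overlapping placebo. The change there was 0.43 ± 0.11 (adjusted p = 0.0175), and 0.22 ± 0.08 (adjusted p = 0.151) without transgenic placebo replicates 8 and 9, which had the lowest values, 522 and 681. The averaged RAD001 change of Atp5g2, 0.22 ± 0.07 (adjusted p = 0.0478), was kept in 10 of 31 fits that left out 1 array. Atp5g1 went the other way at 12 h. It read 375, 364, 530.2 and 476 in wild type, 632, 689.5, 694 and 744 in transgenic placebo, and 428, 419, 429, 429 and 441 with RAD001. The transgenic placebo arrays were above all arrays of both other groups. The changes were 0.68 ± 0.19 by genotype (adjusted p = 0.00938) and -0.68 ± 0.18 with RAD001 (adjusted p = 0.0428), and the second call was kept in none of 9 fits that left out 1 array. At 15 d Atp5g1 changed by -0.09 ± 0.19 by genotype and -0.06 ± 0.15 with RAD001, and the averaged RAD001 change was -0.36 ± 0.10 (adjusted p = 0.0131).

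Atp5g3 had smaller changes. At 12 h it read 2523, 2538, 2573 and 2714 in wild type, 3147, 3028, 2735 and 3177 in transgenic placebo and 2548, 2521, 2512, 3149 and 2449 with RAD001. Its averaged changes were 0.17 ± 0.04 by genotype (adjusted p = 0.00241) and -0.17 ± 0.04 with RAD001 (adjusted p = 0.00273), both kept in every fit that left out 1 array, though the genotype call was lost after quantile normalization (adjusted p = 0.185). Atp5md, a small membrane subunit of the synthase, had averaged changes of 0.31 ± 0.07 by genotype (adjusted p = 0.000409) and -0.24 ± 0.06 with RAD001 (adjusted p = 0.0107, and 0.152 without 15 d). Atp5b, Atp5d and Atp5g2 lost their averaged RAD001 calls in some fits that left out 1 array, with adjusted p up to 0.12, 0.0849 and 0.11.

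Complex I was then compared time by time. At 12 h, 10 of 32 were called by genotype, 9 higher and only Ndufa7 lower; over all complexes 18 of 71 were called (14 higher, 4 lower), where 20.6% of all features were called, 9.62% higher and 11% lower. At 48 h, 8 of 32 were called, only Ndufa1 higher and 7 lower; over all complexes 15 of 71 were called (5 higher, 10 lower), where 26.6% of all features were called, 12.2% higher and 14.4% lower. At 15 d, 3 of 32 were called, Ndufa2 higher and Ndufb5 and Ndufv1 lower; over all complexes 10 of 71 were called (4 higher, 6 lower), where 19.9% of all features were called, 9.07% higher and 10.9% lower. Quantile normalization changed the split at 48 h to 2 higher and 14 lower. With all probe sets tested apart, the split at 15 d turned to 21 probe sets higher and 9 lower, of 24 genes. With zeros as missing the counts at 12 h, 48 h and 15 d were 20 (16 higher, 4 lower), 17 (8 higher, 9 lower) and 14 (7 higher, 7 lower). Over all features 2521, 3141 and 2456 of 9617 were then called, against 1987, 2564 and 1920 of 9627 with the floor. The test that the genotype effect is equal at the 3 times called 13 of 71 members, where 20.4% of all features were called. The members' share, 18.3%, is below that background. Of the 13, 8 were of complex I, 25% of its 32 genes (Ndufs5, Ndufa2, Ndufs3, Ndufs8, Ndufs1, Ndufb2, Ndufb5 and Ndufa10), 2 of complex III, 2 of complex IV and 1 of complex V. The count of 13 was 5 with the set of 15 d arrays as a block. It was 8 without wild type at 12 h replicate 1 or 2 or transgenic placebo at 48 h replicate 4 or 5, 6 without wild type at 48 h replicate 2, and 5 or 7 without wild type at 15 d replicate 1 or 3. The 15 d count was 1 with the set of 15 d arrays as a block, Cycs alone, and 17 or 18 without transgenic placebo at 15 d replicate 1 or 2. The 12 h count was 9 without wild type replicate 2 and the 48 h count 8 without wild type replicate 1.

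Ndufs1, the largest iron-sulfur subunit of complex I, showed the time dependence in wild type. It read 243, 162, 216 and 199.6 in wild type at 12 h, 296, 331, 361 and 331 at 48 h and 258, 276.5 and 273 at 15 d. Transgenic placebo read 223, 264, 255 and 211 at 12 h, 183, 256, 236, 160.04 and 220.4 at 48 h, and from 229.9 through 270.3 to 357 at 15 d. At 48 h the genotypes did not overlap, and at 12 h and 15 d they did. The genotype change was 0.22 ± 0.14 at 12 h, -0.66 ± 0.13 at 48 h (adjusted p = 0.000279) and 0.05 ± 0.13 at 15 d, and the test of equal effects gave an adjusted p of 0.00365. Ndufs5, an accessory subunit, differed at 12 h instead, where wild type read 263, 214, 325 and 265 and transgenic placebo 407, 416, 459 and 439. At 48 h wild type read 383, 403, 400.5 and 378 and transgenic placebo 432, 490.5, 463, 406 and 383. The genotype change of Ndufs5 was 0.70 ± 0.11 at 12 h (adjusted p = 2.26e-05), 0.15 ± 0.11 at 48 h and 0.05 ± 0.11 at 15 d, with an adjusted p of 0.00793 for equal effects.

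Within wild type alone, 48 h against 12 h, 12 of 71 members were called, 11 higher and 1 lower, where 17.1% of all features were called, 8.64% higher and 8.5% lower. Complex I held 8 of the 11: Ndufs1 (0.70 ± 0.14, adjusted p = 0.00083), Ndufs5 (0.57 ± 0.11, adjusted p = 0.000921), Ndufs3 (0.46 ± 0.11, adjusted p = 0.00339), Ndufa10, Ndufs8, Ndufa12, Ndufb2 and Ndufb1. No gene of complex I was lower, and its median change was 0.19, against -0.01 over all features. This comparison shares the wild type 12 h arrays with the 12 h genotype comparison and the wild type 48 h arrays with the one at 48 h. Treating zeros as missing gave 13 calls, 11 higher and 2 lower. Without wild type 12 h replicate 2, which had the lowest Ndufs1 and Ndufs5 values, 6 of 71 were called. Uqcr10 also stood among the 11, and among those higher by genotype at 12 h (3.11 ± 0.80), because wild type 12 h replicates 1 and 2 were listed at 0 where all other arrays read at least 664.8. With zeros as missing these changes were -0.27 (adjusted p = 0.155) and -0.22 (adjusted p = 0.259). The 48 h genotype change of Ndufa5, -1.22 ± 0.41, likewise rested on a 0 on transgenic placebo replicate 3 and was -0.49 ± 0.18 (adjusted p = 0.0348) without it.

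**Figure D3:**
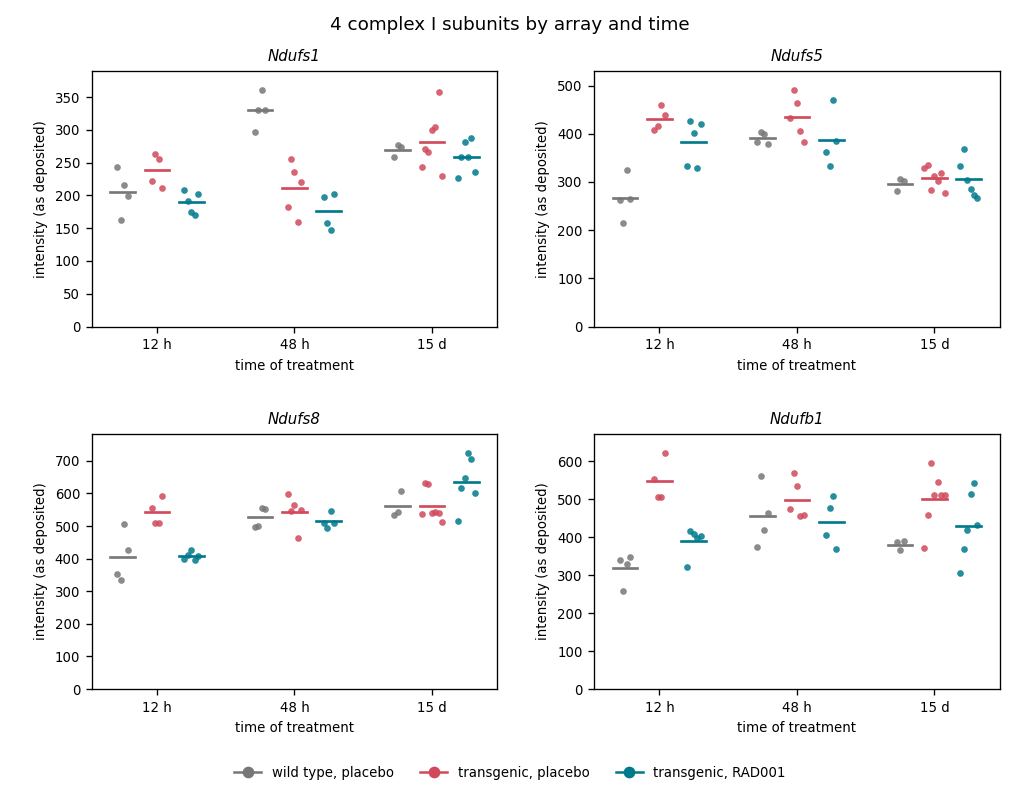
Deposited intensity (linear) of the complex I genes Ndufs1, Ndufs5, Ndufs8 and Ndufb1 on each array at 12 h, 48 h and 15 d, with group means as lines. Wild type arrays of Ndufs1 lie between 162 and 243 at 12 h and between 296 and 361 at 48 h, and Ndufs8 with RAD001 at 12 h lies between 395 and 426, below all placebo arrays of transgenic mice.

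With RAD001, complex I had 5 of 32 genes called in the average, all lower: Ndufb1, Ndufb6, Ndufs1, Ndufa10 and Ndufa1. That is 15.6%, where 10.4% of all features were called, 4.7% lower. Ndufs1 and Ndufa10 lost the call in some fits that left out 1 array. The complex median was -0.04, with 18 of 32 below 0. Ndufa3, with its zero as missing, was also lower (-0.22 ± 0.05, adjusted p = 0.0033), and it was higher by genotype (0.29 ± 0.06, adjusted p = 0.000107). Ndufb1, a small subunit of the membrane arm, read 341, 258, 329.98 and 349 in wild type at 12 h, 554, 507, 506 and 623 in transgenic placebo and 322, 416, 409.5, 398 and 404 with RAD001. Every transgenic placebo array was above every array of the other groups at that time. Its averaged changes were 0.44 ± 0.08 by genotype (adjusted p = 8.51e-05) and -0.30 ± 0.08 with RAD001 (adjusted p = 0.00751). Ndufs8, which carries iron-sulfur clusters near the ubiquinone site, read 352, 334, 506 and 427 in wild type at 12 h, 555, 509, 510.3 and 593 in transgenic placebo and 398, 411, 426, 395 and 409 with RAD001. All RAD001 arrays of Ndufs8 were below all transgenic placebo arrays at 12 h. The RAD001 change was -0.41 ± 0.10 at 12 h (adjusted p = 0.0237, kept in 4 of 9 fits that left out 1 array) and 0.17 ± 0.08 at 15 d. Ndufa1, a subunit needed for assembly of the complex, ran at 15 d from 2960 through 3104 to 3284 in transgenic placebo and from 2458 through 2574 to 2766 with RAD001, without overlap. The change was -0.27 ± 0.05 (adjusted p = 0.000901), and -0.24 ± 0.05 (adjusted p = 0.00805) without placebo replicates 8 and 9. Its averaged RAD001 change, -0.13 ± 0.03 (adjusted p = 0.0082), lost the call after quantile normalization (adjusted p = 0.319).

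In complex III, Uqcr11 and Uqcrh, both small subunits, were higher by genotype in the average (0.19 ± 0.06, adjusted p = 0.0171, and 0.14 ± 0.05, adjusted p = 0.0158). None of the 9 genes was called lower. The share called was 22.2%, where 33.5% of all features were called. With zeros as missing, Uqcr10 was lower (-0.19 ± 0.07, adjusted p = 0.0267) and Uqcrq higher by genotype (0.30 ± 0.06, adjusted p = 8.14e-05), and Uqcrq was lower with RAD001 (-0.18 ± 0.05, adjusted p = 0.0219). With RAD001, 8 of 9 were below 0 and the median was -0.12. Uqcrfs1, the Rieske iron-sulfur protein that passes electrons to cytochrome c1, and Uqcrb were called lower. They make up 22.2% of the complex, where 10.4% of all features were called with RAD001, 4.7% lower. At 48 h Uqcrfs1 read 1305, 1278, 1285, 1333 and 1285 in transgenic placebo and 729, 901, 1161 and 1050.5 with RAD001, without overlap. At 15 d it ran from 1235 through 1366 to 1579 in transgenic placebo and from 999 through 1094 to 1146 with RAD001, again without overlap. At 12 h the groups overlapped, with a change of 0.10 ± 0.11. The 15 d change was -0.35 ± 0.09 (adjusted p = 0.0117), with an adjusted p of 0.0778 without placebo replicates 8 and 9 and 0.103 after quantile normalization. By genotype Uqcrfs1 was not called at any time with the floor, but it was called at 15 d with zeros as missing. Cyc1, cytochrome c1, was not called by genotype (-0.12 ± 0.05, adjusted p = 0.0756) or with RAD001 (-0.12 ± 0.05, adjusted p = 0.105).

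In complex IV, 4 of the 12 measured genes were higher by genotype in the average (Cox6b1, Cox8a, Cox6c and Cox7a2) and 2 lower (Cox7a2l and Cox8c, a testis-type isoform). The genotype calls were 50% of the measured genes, where 33.5% of all features were called. With RAD001, Cox6b1, Cox8a and Cox5b were lower and Cox7a2l was higher, and the complex median was -0.01. The RAD001 calls were 33.3%, where 10.4% of all features were called, 4.7% lower and 5.75% higher. Cox5a, a core nuclear subunit of complex IV, was left out of these calls by its single 0. It read 1642.8, 1622.6, 1570.8, 1656.4 and 1505 in transgenic placebo at 48 h and 1030.3, 1198.4, 1141.4 and 1200.2 with RAD001, without overlap. With the zero as missing Cox5a was lower with RAD001 in the average (-0.35 ± 0.05, adjusted p = 3.27e-06), at 48 h (-0.49 ± 0.09, adjusted p = 0.00076) and at 15 d (-0.31 ± 0.08, adjusted p = 0.0107), and higher by genotype (0.23 ± 0.05, adjusted p = 0.000862). With the floor its averaged changes were -0.04 ± 0.38 with RAD001 and -0.09 ± 0.42 by genotype. At 6 d and 9 d another probe set stood for Cox5a, and it was not called with RAD001 (-0.26 ± 0.08, adjusted p = 0.29). Cox6b1, which bridges the monomers of the complex, read 1991, 1901 and 2179 in wild type at 15 d, ran from 2165 through 2623 to 3282 in transgenic placebo and from 1794 through 2103 to 2410 with RAD001. Its averaged changes were 0.31 ± 0.06 by genotype (adjusted p = 0.000123) and -0.22 ± 0.06 with RAD001 (adjusted p = 0.00636), and both of its probe sets had these signs. The RAD001 change at 15 d, -0.37 ± 0.08 (adjusted p = 0.00523), was kept in all 13 fits that left out 1 array but not without placebo replicates 8 and 9 together (-0.27 ± 0.08, adjusted p = 0.0584), which were among the 3 highest placebo values. Cox7a2l, known as a factor that joins complexes III and IV into supercomplexes, went the opposite way. At 12 h it read 1711, 1774, 1508.5 and 1508 in wild type, 979, 1032, 1148 and 1079.8 in transgenic placebo and 1400.5, 1348, 1359.5, 1305 and 1413 with RAD001. The 3 groups did not overlap at 12 h, and RAD001 lay between the others. Its averaged changes were -0.30 ± 0.06 by genotype (adjusted p = 0.000259) and 0.24 ± 0.06 with RAD001 (adjusted p = 0.00442), with the same sign in all 3 probe sets and kept in every fit that left out 1 array. The genotype effect differed between times (adjusted p = 0.0311), and was -0.62 ± 0.11 at 12 h and -0.12 ± 0.11 at 15 d. Without 12 h the averaged genotype change was -0.14 (adjusted p = 0.186), and without 15 d neither Cox7a2l nor Cox6b1 kept its RAD001 call (adjusted p = 0.0611 and 0.258).

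**Figure D4:**
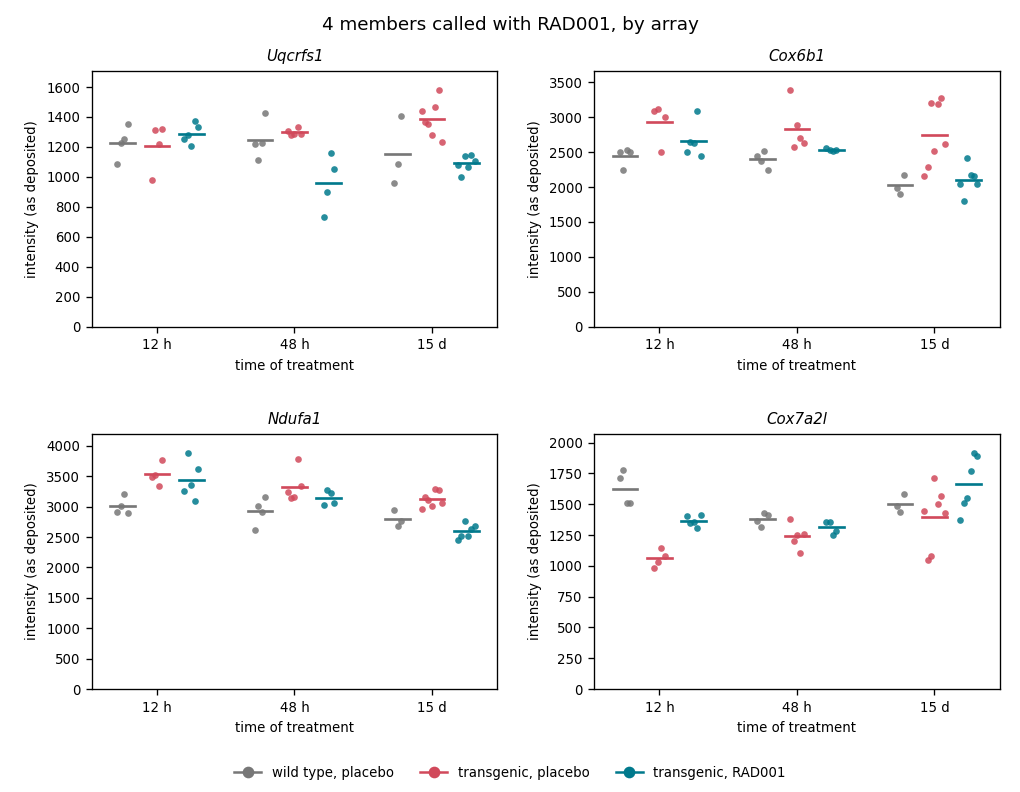
Deposited intensity (linear) of Uqcrfs1, Cox6b1, Ndufa1 and Cox7a2l on each array at 12 h, 48 h and 15 d, with group means as lines. Uqcrfs1 with RAD001 is below transgenic placebo at 48 h and 15 d without overlap, and Cox7a2l in transgenic placebo is below both other groups at 12 h.

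At single times few subunits were called with RAD001. At 12 h, 4 of 71 were called, all lower (Atp5g1, Ndufs8, Ndufb2 and Uqcrb), where 1.48% of all features were called, 0.644% higher and 0.831% lower. At 48 h only Uqcrfs1 was called, where 3.54% of all features were called, 2.02% higher and 1.53% lower. At 15 d, 9 of 71 were called, Ndufv1 and Atp5g2 higher and Ndufa1, Cox5b, Cox6b1, Atp5md, Atp5l, Uqcrfs1 and Cycs lower, where 5.78% of all features were called, 2.51% higher and 3.26% lower. When zeros were treated as missing the counts at 12 h, 48 h and 15 d were 5, 4 and 11, with Cox5a, Cycs and Atp5pb (-0.47 ± 0.11, adjusted p = 0.00901) added at 48 h. Over all features 223 and 505 of 9617 were then called at 12 h and 48 h, against 142 and 341 of 9627 with the floor. None of the members' 12 h or 48 h calls of the main fit was kept in every fit that left out 1 array. The counts ran from 0 to 3 over such fits at 12 h (0 without placebo replicate 2 or RAD001 replicate 2, 3 without RAD001 replicate 4 and 1 without each of the others) and from 0 to 3 at 48 h (0 without RAD001 replicate 1, 3 without RAD001 replicate 2 or placebo replicate 1). Without transgenic placebo at 15 d replicates 8 and 9, of the 9 calls at 15 d 1 remained, Ndufa1. With the set of 15 d arrays as a block all 9 remained, and after quantile normalization 3 were higher and 3 lower. Without single arrays the 15 d count was 5 (placebo replicate 4), 4 (placebo replicate 8) and 4 (RAD001 replicate 2). The test that the RAD001 effect is equal at the 3 times called no member, where 0.499% of all features were called; the lowest adjusted p was 0.0505, for Ndufs8. It called 1 without placebo at 48 h replicate 1 or 4, placebo at 15 d replicate 2 or 4, or RAD001 at 48 h replicate 1, and 2 without RAD001 at 48 h replicate 4 or at 15 d replicate 1.

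Complete separation of the arrays was also counted. By genotype it held for 25.4% of members at 12 h, 22.5% at 48 h and 12.7% at 15 d. Of all features it held for 29%, 29% and 13%. At 12 h every RAD001 array was below every transgenic placebo array for 15 of 71 members and above for 1, Cox7a2l, together 22.5%, where 7.39% of all features did not overlap (3.94% lower, 3.45% higher). The 15 were Cycs, 8 genes of complex I (Ndufc1, Ndufb7, Ndufa9, Ndufs3, Ndufs8, Ndufs1, Ndufb2 and Ndufb1), Cyc1, Uqcrc2 and Uqcrb of complex III, Cox8a of complex IV, and Atp5g1 and Atp5k of complex V. At 48 h it was 10 members below and none above, 14.1%, where 7.54% of all features did not overlap (3.17% lower, 4.37% higher). They were Cycs, Cyc1, Uqcrfs1, Cox7a2, Cox6b1, Cox5a, Atp5c1, Atp5b, Atp5a1 and Atp5mpl. At 15 d, with more arrays in each group, it was Ndufa1 and Uqcrfs1, 2.82%, both below placebo, where 1.92% of all features did not overlap (1.25% lower, 0.675% higher). Cycs and Cyc1 were the members separated at both 12 h and 48 h. At 12 h the median change of the 71 members was -0.13, with 53 below 0, and at 48 h -0.11, with 51 below 0, against 0.02 and 0.00 over all features.

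**Figure D5:**
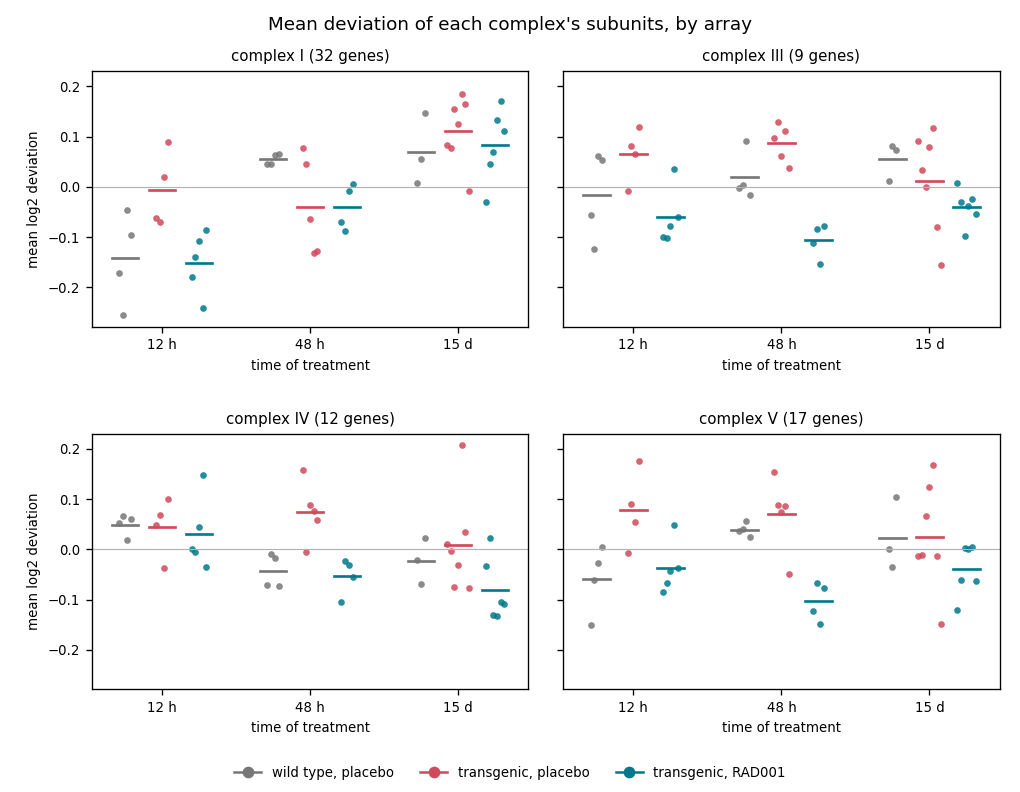
Mean log2 deviation of the measured genes of complexes I, III, IV and V from their own means over the 42 arrays, on each array at 12 h, 48 h and 15 d, with group means as lines and values of 0 left out. For complex III at 48 h, transgenic placebo lies between 0.04 and 0.13 and RAD001 between -0.15 and -0.08. Complexes IV and V do not overlap at 48 h either, with placebo from -0.0058 and -0.0498 and RAD001 up to -0.0238 and -0.0663. Complex I overlaps at 48 h but not at 12 h, with placebo from -0.0691 and RAD001 up to -0.0849. At 15 d transgenic placebo and RAD001 overlap in all 4 complexes. For complex III at 15 d, wild type starts at 0.0113 and RAD001 ends at 0.0083, without overlap.

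At 6 d and 9 d, in the table of 9 arrays with 1 placebo array for each day, no member was called, where 0.888% of 9345 features were called, 0.332% higher and 0.556% lower. The members' median change with RAD001 was 0.03. Cycs read 1100.2 on the placebo array and 1191, 842 and 1091 with RAD001 at 6 d, and 996 against 908, 856, 1207 and 1221 at 9 d, with an averaged change of -0.02 ± 0.18. Uqcrfs1 read 1505.5 against 1090.3, 1294 and 1120.5 at 6 d and 1436 against 1303, 1110.0, 1123 and 1228 at 9 d, so that all RAD001 arrays were below the placebo array of their day (-0.32 ± 0.10, adjusted p = 0.295). Cox7a2l read 1097 against 1307, 1325.5 and 1366.5 at 6 d and 1008 against 1389.8, 1501, 1696 and 1353 at 9 d, all above placebo (0.42 ± 0.10, adjusted p = 0.133). The share of all features with such separation from a single placebo array each day was not counted.

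RAD001-treated transgenic glands, set against wild type over the same times, differed in 15 of 71 members, 5 higher and 10 lower, where 22.5% of all features were called, 10.7% higher and 11.8% lower. After median scaling the split was 2 higher and 9 lower. Ndufs1 (-0.36 ± 0.08, adjusted p = 0.000692), Atp5c1 (-0.25 ± 0.05, adjusted p = 0.000197), Cyc1 (-0.24 ± 0.05, adjusted p = 0.000812) and Atp5g2 (-0.26 ± 0.08, adjusted p = 0.018) were among those lower, and Cycs among those higher. Cox6b1 and Cox7a2l were not called here. This comparison shares arrays with both others.

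Probe sets of one gene did not always move alike. Of 39 genes with several passed probe sets, 23 had the same sign in all of them by genotype and 24 with RAD001, in the averages. Among the called genes with several probe sets it was 13 of 16 and 8 of 9. At 15 d by genotype, Ndufs8 and Ndufv1 had probe sets called in opposite directions, from -0.35 to 0.40 over 6 probe sets and from -0.82 to 0.74 over 3. No level is compared between probe sets.

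Other genes of the pathway were counted by list. In complex II, Sdhb, the iron-sulfur subunit, was lower by genotype (-0.36 ± 0.05, adjusted p = 3.41e-07), and with RAD001 Sdha was higher (0.15 ± 0.05, adjusted p = 0.0394) and Sdhc lower (-0.24 ± 0.08, adjusted p = 0.0404). Of 27 measured assembly factors, 6 were higher and 4 lower by genotype, together 37% against 33.5% of all features. Ndufaf1, an assembly factor of complex I, had the smallest p of these (0.59 ± 0.08, adjusted p = 4.06e-07), and Cox17, a copper chaperone of complex IV, changed by 0.40 ± 0.07 (adjusted p = 3.51e-05). With RAD001, Sco2, another copper chaperone (-0.49 ± 0.10, adjusted p = 0.00138), Cox20 and Pet100 were lower and Uqcc3 higher. Over all features 10.4% were called with RAD001. Of 16 genes of transcription and upkeep of mitochondrial DNA, Polg and Polg2, the polymerase subunits, were lower by genotype and none was called with RAD001 in the average. Ppargc1a, Tfam, Esrra, Gabpa and Yy1 were not called in either average. Nrf1 was lower with RAD001 at 15 d (-0.43 ± 0.12, adjusted p = 0.0228), and its averaged change was -0.19 ± 0.08 (adjusted p = 0.131). Of 22 mitochondrial genes outside the pathway, 1 was higher and 6 lower by genotype, together 31.8% against the same 33.5%, and Hspa9 and Immt were lower with RAD001. Cs, citrate synthase, a common measure of mitochondrial mass, changed by 0.01 ± 0.06 by genotype and -0.09 ± 0.05 with RAD001 (adjusted p = 0.891 and 0.291).

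Markers of several cell types moved with the averaged comparisons. Over all features, 33.5% were called by genotype, 14.2% higher and 19.2% lower. With RAD001 it was 10.4%, 5.75% higher and 4.7% lower. The luminal epithelium list held 13 measured of 16 genes, with the prostate genes Pbsn and Hoxb13 among them, and 6 were higher by genotype. With RAD001 only Krt8 of these was called, lower. Of 12 smooth muscle markers 9 were lower by genotype (median -1.01) and 7 higher with RAD001 (median 0.48). Their summed intensity at 12 h ran from 13376 to 17071 in wild type, 6098 to 8663 in transgenic placebo and 9379 to 13972 with RAD001. Of 9 fibroblast markers 7 were lower by genotype and 3 higher with RAD001, and of 6 basal epithelium markers 4 were lower and 2 higher. None of 8 immune markers was called in either. Of 12 striated muscle genes 5 were measured, and Tnnc2 and Ckm were lower by genotype, with none called with RAD001. Their summed intensity at 12 h ran from 1269 to 1488 in wild type, 598 to 1057 in transgenic placebo and 800 to 1356 with RAD001. At 15 d it ran from 1177 to 1289, 533 to 841 and 363 to 962, and at 48 h the ranges overlapped, with 463 to 1424 in wild type and 634 to 915 in transgenic placebo. The part of these shifts in the subunit results was not tested. In whole glands, fewer cells of a type and less RNA per cell cannot be told apart.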

How the data were processed

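Arrays of total RNA from mouse ventral prostate were analysed from 2 deposited value tables, in which the authors give a linear intensity for each of 22626 probe sets. The software, scaling and background correction behind these intensities are not given in the sources used here. Probe sets were named through the platform annotation: 20380 had 1 symbol, 691 several and 1555 none. Among the 42 arrays, 3 values above 1e+05 were taken as impossible and their 2 probe sets left out.

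Values were raised to a floor of 16 and put on the log2 scale. Probe sets under the 40th percentile of the mean were left out, and the probe set with the highest mean stood for a gene. limma 3.58.1 in R 4.3.3 fitted 1 mean per group, with a trended moderated variance (eBayes), and Benjamini-Hochberg adjustment ran over all 9627 or 9345 features at 0.05. The calculation was tested on simulated data. Precision is limited by how many arrays each group has. The labels call arrays biological replicates.

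The members and lists were chosen with earlier results of these data known. Named were, for each comparison and complex, up to 4 called members with the smallest p in each direction, up to 5 for each effect by time, Cycs, Cyc1, Uqcrfs1, Ndufa4 and the isoform pairs of complex IV, and up to 4 genes of each other list; any further member could be named by its place in a count. Same replicate numbers in different groups were not treated as pairs in the main fit. Correlations of deviations between same-numbered arrays ran from -0.25 to 0.478. Only RAD001 against transgenic placebo at 15 d had any over 0.1, in 2 of 4 pairs. Replicates 1 and 2 of both these groups lay in one set of 15 d arrays, and replicates 4 and 6 of both in the other. Alternatives covered normalization, the filter, the floor, probe set choice, array weights, blocks, the samples fitted and each array left out. Treating zeros as missing and leaving out 12 h or 15 d were chosen after seeing the data.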

Additional observations from a re-analysis of the deposited data

Results flagged for a closer look

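The effect of genotype differed between 12 h, 48 h and 15 d in 13 of 71 members by limma's test of equal effects. That is 18.3%, below the 20.4% of all features. The adjusted p was 0.00365 for Ndufs1, 0.00793 for Ndufs5, 0.0117 for Ndufb5, 0.013 for Ndufs3, 0.0291 for Ndufb2, 0.0337 for Ndufa10, 0.0351 for Ndufa2 and 0.042 for Ndufs8, all of complex I. It was 0.0389 for Uqcr10 and 0.0462 for Uqcrc2 of complex III, 0.0311 for Cox7a2l and 0.0498 for Cox8c of complex IV, and 0.0273 for Atp5j of complex V. For Uqcr10 it was 0.419 with zeros as missing.

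Single arrays stood apart from the rest of their group in 12 of 207 groups of values tested by Dixon's criterion, which chance meets in about 1 in 20. In complex IV, Cox5b did so on transgenic placebo at 12 h replicate 3 (1341.2), RAD001 at 48 h replicate 4 (1475.6) and wild type at 12 h replicate 3 (1455.4). Cox5a was listed at 0 on transgenic placebo at 15 d replicate 9, Cox6b1 read 2238.7 on wild type at 12 h replicate 2, and Cox8a read 1408.2 on RAD001 at 9 d replicate 1. In complex V, Atp5g1 read 475 on wild type at 48 h replicate 2 and Atp5g3 read 3149.2 on RAD001 at 12 h replicate 4. In complex I, Ndufb1 read 321.6 on RAD001 at 12 h replicate 1 and Ndufv1 read 633.82 on RAD001 at 48 h replicate 5. The mean log2 deviation of complex III on wild type at 48 h replicate 3 was 0.0919, and that of complex IV on transgenic placebo at 15 d replicate 8, an array with many zeros, was 0.2069.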

How the results depend on the processing

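Counts of called members that moved by over 1.5 times are given here, and the cause was not tested. With array weights, 23 were called by genotype at 48 h, 17 with RAD001 at 12 h, 3 at 48 h and 2 at 15 d, 19 in wild type 48 h against 12 h, and 3 for the RAD001 effect by time. Calls over all 9627 features moved too. By genotype at 48 h they went from 2564 to 3743. With RAD001 they went from 142 to 857 at 12 h, from 341 to 578 at 48 h and from 556 to 337 at 15 d. With all probe sets tested apart, 24 were called by genotype at 15 d (21 probe sets higher, 9 lower), 2 with RAD001 at 48 h, 19 in wild type, 24 for RAD001-treated against wild type, 22 for the genotype effect by time and 1 at 6 d and 9 d. Of all 13574 probe sets then tested, 2856 were called by genotype at 15 d and 468 with RAD001 at 48 h. With only the compared groups fitted, the counts were 1 by genotype at 15 d, 2 with RAD001 at 48 h and at 15 d, and 8 and 1 for the effects by time. Over all features, 502 were then called by genotype at 15 d, and 233 and 192 with RAD001 at 48 h and 15 d. With the set of 15 d arrays as a block the member counts were 1 by genotype at 15 d, 9 and 4 with RAD001 at 12 h and 48 h, and 5 and 1 for the effects by time. Over all features, 460 were then called by genotype at 15 d, and 227 and 547 with RAD001 at 12 h and 48 h. Without arrays with over 500 zeros, 7, 5 and 2 members were called with RAD001 at 12 h, 48 h and 15 d. Over all features it was 232 and 473 at 12 h and 48 h. With zeros as missing, 4 were called with RAD001 at 48 h and 1 for its effect by time. The filter at the 60th percentile gave 2 and 1 for these, median scaling gave 1 for the effect by time, quantile normalization gave 22 in wild type, and the RAD001 average without 15 d gave 8.

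Leaving out 1 array gave 21 to 29 by averaged genotype, 9 to 18 at 12 h, 8 to 16 at 48 h and 7 to 18 at 15 d. Over all features it gave 2910 to 3424, 1564 to 1888, 2055 to 2488 and 715 to 2721. With RAD001 it gave 12 to 19 members in the average, 0 to 3 at 12 h, 0 to 3 at 48 h, 4 to 11 at 15 d and 0 to 0 at 6 d and 9 d. Over all features it gave 811 to 1124, 31 to 175, 147 to 398, 372 to 719 and 34 to 112. It gave 6 to 15 members in wild type, 11 to 17 for RAD001-treated against wild type, and 5 to 15 and 0 to 2 for the genotype and RAD001 effects by time. Over all features it gave 995 to 1593, 1875 to 2236, 999 to 2619 and 21 to 71. Cycs was called in all alternatives run for both averages. Signs turned for Uqcr10 with zeros as missing (-0.22 by genotype at 12 h, -0.27 in wild type) and for Ndufa7 by genotype at 48 h with a floor of 64 (0.97), where another probe set was brightest.

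With the replicate block, 3 members were called by genotype at 15 d, 5 with RAD001 at 48 h and 4 at 15 d. Over all 9627 features it was 637, 465 and 319, against 1920, 341 and 556 in the main fit. The block gave 7 members for the genotype effect by time, and 29 and 22 in the genotype and RAD001 averages. The labels do not say what arrays of the same number share.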
